A study of Homo sapiens with 6 samples.

Results

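The receptor genes for interleukin 13, interleukin 4, the interleukin 6 family and interleukin 1 were followed by RNA sequencing in ARPE-19, an established human line of retinal pigment epithelium. The 8 genes, IL13RA1, IL13RA2, IL4R, IL6R, IL6ST, OSMR, LIFR and IL1R1, were taken by symbol from 20461 entries that carry an Ensembl gene identifier. They were selected on their levels in these same 6 libraries, with the comparison below already known, so their values are given as a description, and no test on them is used as support. All 8 passed the filter on low counts and were among the 13645 genes tested.

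All cells were held in 37.5 mM glucose for 48 h before total RNA was extracted, and there was no library in lower glucose in what was analysed here. The control group (HG, 3 libraries) carried a control lentivirus and the PDZK1 group (LV, 3 libraries) a PDZK1 overexpression lentivirus. PDZK1 is a scaffold with PDZ domains that sits under the plasma membrane. Both viruses were given at a multiplicity of infection of 10, and in both groups 4 µg/ml puromycin was added 48 h later to select transduced cells. The promoter that drives the transgene is not given in the sources used here. Nothing in the labels says that the 3 libraries of a group came from separate cultures, so errors and p-values measure the spread between these libraries, which may be technical. The design asks how a high level of PDZK1 alters transcripts of cells in high glucose.

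The libraries held between 27970618 (control replicate 3) and 32804567 (PDZK1 replicate 2) counts. PDZK1 was at 0.588, 0.583 and 0.834 CPM (counts scaled to a common library size) in the control libraries and at 94.3, 77.5 and 89.2 CPM in the PDZK1 libraries, in the direction the labels give. The first principal component separated the groups, and on the second control replicate 3 lay away from the other control libraries. The epithelial keratin KRT8 averaged 1150 CPM in control and 1160 CPM in PDZK1 libraries, and OTX2, a transcription factor of the pigment epithelium, averaged 63.6 and 63.8 CPM. Other markers of the list varied, with BEST1, a chloride channel gene of the pigment epithelium, at 357.6 CPM in PDZK1 replicate 1 and between 4.32 and 5.60 CPM in the other 5 libraries. LRAT held 2.14 to 2.46 CPM in control and 0.967 to 1.98 CPM in PDZK1 libraries, and SERPINF1 1.1 to 1.38 CPM and 0.366 to 0.967 CPM. RPE65 and TTR, which mark the differentiated pigment epithelium, had no count in any library. The leukocyte genes PTPRC, CD3E and TYROBP and the endothelial gene CDH5 had no count either. The summed level of 7 endothelial markers was 5.60 to 6.01 CPM in control and 5.2 to 5.37 CPM in PDZK1 libraries, most of it KDR (4.80 to 5.11 and 3.37 to 3.71 CPM), while ESAM held 0.194 to 0.495 and 0.763 to 1.14 CPM. The summed level of 10 leukocyte markers was 132.0 to 163.3 CPM in control and 125.7 to 129.1 CPM in PDZK1 libraries, nearly all of it CD68, a lysosomal protein gene that other cells also express. CSF1R, of the same list, averaged 1.75 CPM in control and 2.37 CPM in PDZK1 libraries. CD14, ITGAM, LYZ and FCER1G had at most 7 counts in a library. The part of these markers in the receptor values was not tested.

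Interleukin 13 binds IL13RA1, which pairs with IL4R to signal through JAK kinases and STAT6, or it binds IL13RA2, which has a short cytoplasmic tail and is regarded as a decoy. Cytokines of the interleukin 6 family signal through the shared chain gp130 (IL6ST), alone with an alpha chain such as IL6R or paired with OSMR or LIFR, to JAK kinases and STAT3. Interleukin 1 signals through IL1R1 and its accessory chain IL1RAP, and IL1R2 is its decoy. In the retinal pigment epithelium these pathways are known for their part in inflammation.

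Signalling and decoy chains were compared in the coding sequence after the membrane-spanning segment. The segment was placed by computation, as the most hydrophobic stretch of 19 codons after the first 60 codons in the GENCODE release 29 transcript of each gene (GRCh38). The place where a tail starts is therefore approximate. The codons that follow it are called the tail. IL13RA2 had a tail of 17 codons, the shortest of the 8, and IL13RA1 one of 60 codons. IL6R had 82, IL1R1 213, OSMR 220, LIFR 245, IL6ST 279 and IL4R 574 codons. JAK kinases bind cytokine receptors near the membrane at a proline-rich stretch known as box 1, so each tail was searched, in frame and on the coding strand, for a proline codon, any codon and a proline codon (CCNNNNCCN). The pattern first occurred at tail codon 10 in IL13RA1, at codon 16 in IL4R and OSMR, at codon 17 in IL6ST, at codon 22 in LIFR and at codon 32 in IL6R. It did not occur in IL13RA2 or in IL1R1, whose tail carries a TIR domain in place of box 1. Among all coding sequences cut into windows of 17 codons, 7.8% held the pattern, as did 11.2% of windows of 25 codons and 23.3% of windows of 60 codons, so its absence from a tail as short as that of IL13RA2 is common. A match is a match of letters and not a tested binding site.

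The whole tail of both interleukin 13 binding chains, and the first 25 codons of the tail of 4 other signalling chains, are shown so that the short tail of the decoy can be set beside those of its signalling relatives. They are printed 5′ to 3′ on the coding strand, with the first proline, any, proline codons in capitals. The stop codon is left out, and introns within the coordinates are removed. IL13RA1 lies at chrX:118773971-118791851 (plus strand), IL13RA2 at chrX:115004083-115005223 (minus), IL4R at chr16:27355891-27358973 (plus), IL6ST at chr5:55942697-55947512 (minus), OSMR at chr5:38931948-38932520 (plus) and LIFR at chr5:38482628-38484809 (minus).
IL13RA1: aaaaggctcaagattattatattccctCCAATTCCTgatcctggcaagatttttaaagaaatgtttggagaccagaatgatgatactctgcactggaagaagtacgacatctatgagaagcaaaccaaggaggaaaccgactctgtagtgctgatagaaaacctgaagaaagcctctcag
IL13RA2: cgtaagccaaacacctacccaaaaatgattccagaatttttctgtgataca
IL4R: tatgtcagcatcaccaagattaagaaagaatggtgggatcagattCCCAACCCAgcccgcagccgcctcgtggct
IL6ST: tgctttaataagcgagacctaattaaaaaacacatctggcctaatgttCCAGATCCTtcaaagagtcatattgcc
OSMR: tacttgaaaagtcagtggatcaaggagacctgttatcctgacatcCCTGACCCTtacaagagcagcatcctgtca
LIFR: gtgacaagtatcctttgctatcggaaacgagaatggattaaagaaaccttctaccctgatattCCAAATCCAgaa

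The decoy chain IL13RA2 was the receptor with the largest difference between the groups among the 8. IL13RA2 (ENSG00000123496) lies at chrX:115003975-115019977 on the minus strand. The 3 control libraries held 387, 429 and 266 of its counts, and the 3 PDZK1 libraries 163, 174 and 185, both in the order of the replicate numbers. Scaled to library size these were 12.0, 13.9 and 9.64 CPM in control (11.8 ± 2.13, SD, n = 3) and 5.09, 5.31 and 5.83 CPM in PDZK1 libraries (5.41 ± 0.383, SD, n = 3). Every PDZK1 library was below every control library, and the lowest control library, replicate 3, was the one that stood apart in the second principal component. The transcript was 2.19-fold lower with PDZK1, a log2 fold change of -1.13 (SE 0.14, 95% interval -1.46 to -0.81). The log2 fold change was -1.26 without control replicate 3, and it lay between -1.26 and -1.0 with any single library left out. In bulk RNA, fewer cells that express a gene and less RNA per cell cannot be told apart.

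IL13RA1 (ENSG00000131724, chrX:118727572-118794539, plus strand), the chain that signals, did not follow the decoy. Its control libraries held 99.5, 97.9 and 101.3 CPM and its PDZK1 libraries 107.0, 116.3 and 111.1 CPM. The groups did not overlap, and the difference was small, at 1.12-fold higher with PDZK1 (log2 fold change 0.16, SE 0.04, 95% interval 0.073 to 0.25). The spread within the control group was the narrowest of the 8 receptors relative to its mean, at 99.54 ± 1.70 CPM (SD, n = 3), and control replicate 3 was the highest control library here. A processed pseudogene, AL391280.1, overlaps 1062 bases of the gene on the same strand and is not among the entries analysed here.

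IL4R (ENSG00000077238, chr16:27313668-27364778, plus strand), the partner of IL13RA1, held 25.2, 24.8 and 21.3 CPM in control and 23.6, 21.4 and 26.4 CPM in PDZK1 libraries. The libraries of the groups were interleaved. The log2 fold change was -0.0025, and its 95% interval, -0.21 to 0.21, leaves room for a difference of that size in either direction. The common gamma chain IL2RG, with which IL4R forms the receptor used by lymphoid cells, had no count in any library. With 0 counts, a level of up to 0.0915 to 0.109 CPM per library is allowed (3 counts, counting error only).

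**Figure D1:**
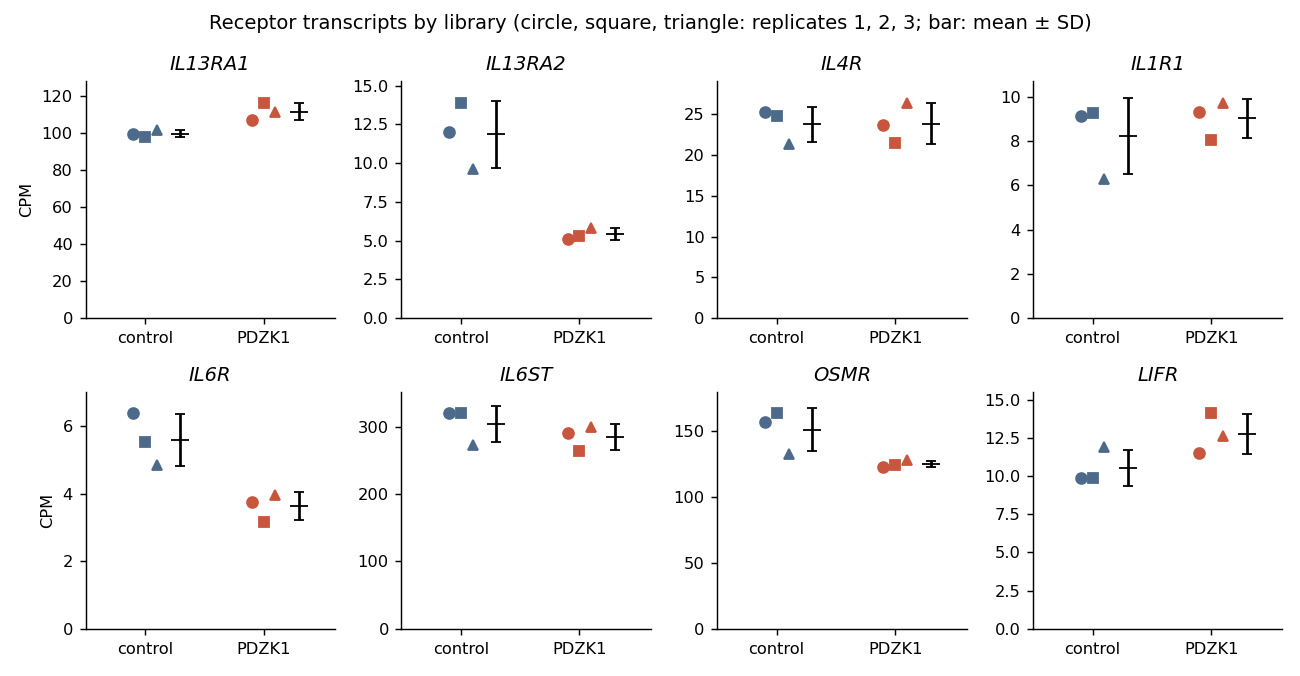
Levels of the 8 receptor transcripts in CPM (linear axes from 0) in the 3 control (blue) and 3 PDZK1 (red) libraries, with circles, squares and triangles for replicates 1, 2 and 3 and bars for the mean ± SD. IL13RA2 lies between 9.64 and 13.9 CPM in control and between 5.09 and 5.83 CPM in PDZK1 libraries, IL13RA1 lies slightly higher with PDZK1, and the IL4R libraries of the groups overlap.

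The balance of decoy and signalling chain was therefore given per length, in FPKM (fragments scaled by transcript length and by library size), the scale on which levels of different genes can be set side by side. The FPKM of IL13RA1 was 3.08, 2.60 and 3.90 times that of IL13RA2 in control replicates 1 to 3. In PDZK1 replicates 1 to 3 it was 7.53, 8.05 and 7.14 times that of IL13RA2. The ratio was 2.40-fold higher with PDZK1 (a difference of 1.27 in log2, from 1.65 ± 0.29 to 2.92 ± 0.086, SD, n = 3). The difference was 1.42 without control replicate 3 and lay between 1.13 and 1.42 with any library left out. Expressed as a share, IL13RA2 made up 24.2% ± 3.69 of the summed FPKM of both chains in control and 11.7% ± 0.616 in PDZK1 libraries (SD, n = 3). The lowest control share, 20.4%, was above the highest PDZK1 share, 12.3%. These are shares of transcripts and not of receptors at the cell surface.

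**Figure D2:**
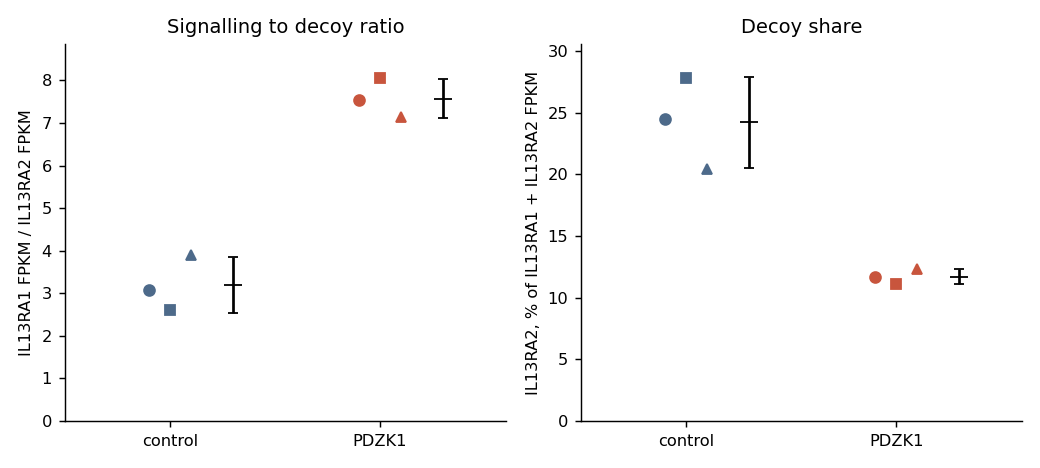
Ratio of IL13RA1 to IL13RA2 FPKM (left) and the percent of their summed FPKM held by IL13RA2 (right), by library, with bars for the mean ± SD. The ratio lies between 2.60 and 3.90 in control and between 7.14 and 8.05 in PDZK1 libraries, with no overlap.

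On the same scale IL4R lay near the level of the decoy in control and above it in PDZK1 libraries. IL4R held 0.938, 0.818 and 0.964 times the FPKM of IL13RA2 in the control libraries and 1.95, 1.73 and 2.15 times in the PDZK1 libraries. The ratio of IL13RA1 to IL4R, both signalling chains, overlapped between the groups, with 3.28, 3.18 and 4.04 in control against 3.86, 4.66 and 3.31 in PDZK1 libraries.

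Among the receptors of the interleukin 6 family, the ligand-binding alpha chain IL6R (ENSG00000160712, chr1:154405193-154469450, plus strand) had the largest difference. It held 6.38, 5.54 and 4.86 CPM in control and 3.75, 3.17 and 3.97 CPM in PDZK1 libraries. The groups did not overlap, and IL6R was 1.54-fold lower with PDZK1 (log2 fold change -0.62, SE 0.16, 95% interval -0.99 to -0.26). The counts behind it were the lowest of the 8 genes, between 104 and 206 per library. An antisense gene, IL6R-AS1, overlaps 1372 bases of IL6R, and whether counting used strand is not given in the sources used here. Opposite-strand genes also overlap IL6ST (AC008892.1, 16746 bases, and AC008914.1, 5585), IL1R1 (IL1R1-AS1, 7254) and IL4R (AC106739.1, 434).

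The shared signalling chain IL6ST (ENSG00000134352, chr5:55935095-55994993, minus strand) held 319.8, 319.7 and 272.6 CPM in control and 291.1, 263.7 and 299.1 CPM in PDZK1 libraries. Control replicate 3 lay among the PDZK1 libraries, apart from the other control libraries. The log2 fold change was -0.096 (95% interval -0.27 to 0.076), and it was -0.17 without control replicate 3. The FPKM of IL6ST was 37.8, 41.5 and 28.9 times that of IL6R in control and 60.4, 61.8 and 45.2 times in PDZK1 libraries, so the shared chain was in larger excess over the alpha chain with PDZK1. Its log2 difference was 0.63 (from 5.16 ± 0.27 to 5.79 ± 0.25, SD, n = 3), about the size of the difference of IL6R itself.

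OSMR (ENSG00000145623, chr5:38845858-38945596, plus strand), which binds oncostatin M together with gp130, held 156.5, 163.1 and 132.2 CPM in control and 122.7, 124.1 and 127.4 CPM in PDZK1 libraries. The groups did not overlap, though control replicate 3 came close to the PDZK1 libraries. OSMR had a log2 fold change of -0.27 (SE 0.073, 95% interval -0.44 to -0.10), which was -0.36 without control replicate 3. OSMR shares 7678 bases with RICTOR on the opposite strand, and RICTOR had a log2 fold change of 0.072.

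LIFR (ENSG00000113594, chr5:38474963-38608354, minus strand), the other partner of gp130, went the opposite way, at 9.84, 9.87 and 11.9 CPM in control and 11.5, 14.1 and 12.6 CPM in PDZK1 libraries. The groups overlapped through control replicate 3, and LIFR had a log2 fold change of 0.27 (SE 0.12, 95% interval 0.016 to 0.53), or 0.37 without that library. The FPKM of OSMR was 30.6, 32.6 and 16.9 times that of LIFR in control and 17.4, 16.7 and 20.1 times in PDZK1 libraries. Control replicate 3 had the ratio of the PDZK1 libraries on this scale. The ratio of their CPM was 15.9, 16.5 and 11.1 in control and 10.7, 8.82 and 10.1 in PDZK1 libraries, with control replicate 3 again nearest to the PDZK1 libraries but no overlap. The antisense gene LIFR-AS1 overlaps 51569 bases of LIFR.

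A gene's count and FPKM together imply a length (its share of the library total divided by its FPKM). The 2 tables keep a fixed proportion for a gene where this length is the same in every library. It was nearly constant for IL13RA1, between 4.32 and 4.36 kb, and for IL13RA2, between 1.55 and 1.62 kb. For LIFR it was 11.1, 11.4 and 8.73 kb in control and 9.24, 10.6 and 11.4 kb in PDZK1 libraries, and for IL6R 5.98, 5.71 and 4.34 kb against 6.27, 5.86 and 4.81 kb. For IL1R1 it was 5.43, 4.41 and 5.05 kb in control and 5.03, 4.65 and 4.51 kb in PDZK1 libraries. The FPKM of LIFR, IL6R and IL1R1 therefore did not keep a fixed proportion to their counts, while those of IL13RA1 and IL13RA2 nearly did. The cause, such as the transcript forms credited in a library, was not tested.

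The receptor of interleukin 1, IL1R1 (ENSG00000115594, chr2:102064544-102179874, plus strand), held 9.13, 9.29 and 6.27 CPM in control and 9.30, 8.06 and 9.74 CPM in PDZK1 libraries. Control replicate 3 was the lowest of the 6 libraries, and the others overlapped. IL1R1 had a log2 fold change of 0.13 (SE 0.16, 95% interval -0.22 to 0.49), which was -0.029 without control replicate 3, so its direction rested on that library. Its accessory chain IL1RAP held 29.3, 33.0 and 32.3 CPM in control and 29.3, 30.9 and 26.5 CPM in PDZK1 libraries. IL1RAP was 4.01, 3.79 and 5.93 times IL1R1 in FPKM in control and 3.64, 4.09 and 2.78 times in PDZK1 libraries. The decoy IL1R2 had at most 2 counts in any library, so the interleukin 1 axis had no measurable decoy transcript to set beside IL13RA2.

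**Figure D3:**
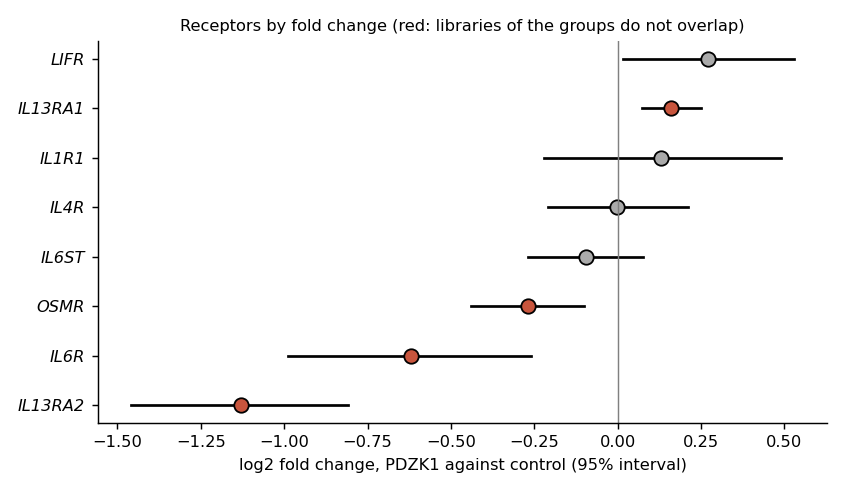
Log2 fold change of each receptor, PDZK1 against control, with its 95% interval from the edgeR model, in red where the libraries of the groups do not overlap. IL13RA2 at -1.13 lies farthest from 0, followed by IL6R at -0.62, and the intervals of IL4R, IL6ST and IL1R1 hold 0.

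Over the 8 receptors, 1 (IL13RA2) passed an adjusted p of 0.05 in edgeR's quasi-likelihood test, against 3.83% of all genes tested (1.41% higher and 2.41% lower with PDZK1). The libraries of the groups did not overlap for 4 receptors, against 23.9% of all genes tested. Of these, IL13RA1 was higher and IL13RA2, IL6R and OSMR were lower. Because the receptors were selected on these values, nothing is read from either count. The median log2 fold change of the 8 was -0.049, beside -0.00025 over all genes tested. Control replicate 3 was the lowest control library for 6 of the 8 receptors, and the part of that library in their values was not tested beyond leaving it out.

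Per length, the 8 receptors spanned a wide range in control, from IL6ST (37.2 FPKM) through OSMR (25.9), IL13RA1 (22.8), IL13RA2 (7.32), IL4R (6.57), IL1R1 (1.66) and IL6R (1.04) to LIFR (1.03 FPKM). In this order OSMR overlapped IL13RA1, IL13RA2 overlapped IL4R, and IL6R overlapped LIFR, while the other 4 pairs of neighbours did not overlap. In PDZK1 libraries the FPKM order was IL6ST (35.7), IL13RA1 (25.7), OSMR (22.0), IL4R (6.63), IL13RA2 (3.40), IL1R1 (1.92), LIFR (1.23) and IL6R (0.655 FPKM), and none of the 7 pairs of neighbours overlapped. The places that changed were those of OSMR and IL13RA1, of IL13RA2 and IL4R, and of IL6R and LIFR, the pairs that overlapped in control.

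Of 17 ligands of these receptors, 9 were tested and 1 fell, CHI3L1, and the median log2 fold change of the 9 was -0.19. CHI3L1 encodes a secreted glycoprotein known to bind IL13RA2. It held 57.0, 54.0 and 47.9 CPM in control and 33.4, 27.3 and 33.9 CPM in PDZK1 libraries (log2 fold change -0.75, SE 0.095, adjusted p = 0.00398, edgeR quasi-likelihood test), with every PDZK1 library below every control library. CHI3L1 passed the threshold under all 15 alternatives (adjusted p up to 0.0461). TMEM219, a partner of IL13RA2 in the binding of CHI3L1, held 73.4, 73.5 and 75.3 CPM in control and 74.2, 72.2 and 75.2 CPM in PDZK1 libraries.

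The classical ligands of the interleukin 13 and 4 receptors were at or near the floor. IL4 had at most 1 count in a library, and IL13 had 5 counts in control replicate 1 and 0 in the others. OSM, which encodes the oncostatin M that OSMR binds, had at most 2 counts in a library. LIF, the ligand of LIFR, was by contrast abundant, with 230.1, 234.3 and 194.8 CPM in control and 220.1, 203.4 and 207.7 CPM in PDZK1 libraries (log2 fold change -0.063, adjusted p = 0.723 in the edgeR test). IL6 held 10.4, 13.2 and 6.49 CPM in control and 6.21, 4.36 and 5.52 CPM in PDZK1 libraries. Its groups did not overlap, but control replicate 3 lay near the PDZK1 libraries, and its log2 fold change of -0.91 did not pass the edgeR test (adjusted p = 0.128). Without control replicate 3 the log2 fold change of IL6 was -1.14 and the adjusted p 0.00244. IL1B held 10.3, 9.16 and 6.27 CPM in control and 7.80, 4.73 and 6.87 CPM in PDZK1 libraries (adjusted p = 0.424 in the edgeR test), and IL1A had at most 21 counts in a library and was not tested.

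**Figure D4:**
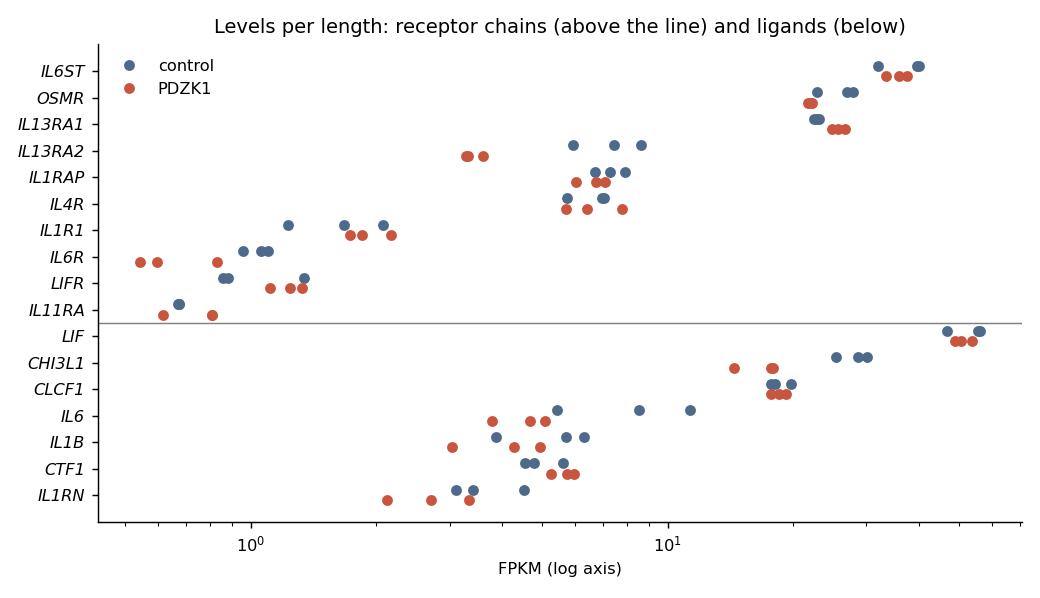
FPKM (log axis) of receptor chains above the grey line and of ligands below it, with 1 point per library, blue for control and red for PDZK1. LIF lies at the top of the ligands near 50.5 FPKM, and IL4 and IL13 are at the floor and not drawn. IL13RA2, IL6R, OSMR, CHI3L1 and IL6 have red points to the left of all blue points, and IL13RA1 has them to the right.

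Among 19 partner and related receptor subunits, 6 were tested and 2 fell. SIGIRR, an inhibitory receptor of the interleukin 1 family, held 1.24, 1.17 and 1.56 CPM in control and 0.468, 0.427 and 0.315 CPM in PDZK1 libraries (log2 fold change -1.70, adjusted p = 0.0221, edgeR). These SIGIRR values rest on few counts, 40, 36 and 43 in control and 15, 14 and 10 in PDZK1 libraries. LEPR, the leptin receptor and a relative of gp130, held 22.7, 20.3 and 22.0 CPM in control and 17.4, 17.8 and 15.0 CPM in PDZK1 libraries (log2 fold change -0.37, adjusted p = 0.0442, edgeR). Both calls held without control replicate 3 (adjusted p = 0.0432 and 0.0487) and were lost without any one of the other libraries, with adjusted p between 0.0664 and 0.16. CNTFR, the alpha chain for ciliary neurotrophic factor, had at most 4 counts in a library, and IL11RA held 0.851 to 1.81 CPM.

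Of 33 other cytokine receptors, 21 were tested and 1 fell, IL7R, which binds interleukin 7. IL7R held 70.4, 70.6 and 68.9 CPM in control and 47.7, 51.2 and 43.4 CPM in PDZK1 libraries (log2 fold change -0.56, adjusted p = 0.00149, edgeR), and the call held under all 15 alternatives. The median of the 21 was 0.046.

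None of the 11 JAK and STAT genes passed edgeR's test, with 4 at an unadjusted p under 0.05, 1 past the threshold in DESeq2 and 0 in limma on log2 FPKM. Over all 13645 genes tested, 2388 had an unadjusted p under 0.05 in edgeR's test. STAT6, which acts below IL4R and IL13RA1, held 257.6, 248.9 and 246.1 CPM in control and 267.1, 271.2 and 274.3 CPM in PDZK1 libraries (log2 fold change 0.11, adjusted p = 0.114, edgeR). STAT3, which acts below gp130, held 109.4, 112.2 and 96.0 CPM in control and 97.3, 88.9 and 98.7 CPM in PDZK1 libraries (log2 fold change -0.16, adjusted p = 0.249, edgeR). Without control replicate 3 the log2 fold change of STAT3 was -0.22 and the adjusted p 0.0219.

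Of 22 adaptors and negative regulators, 20 were tested and 1 rose, and of 19 genes of interleukin 1 receptor signalling, 18 were tested and 1 rose. IRS2, which docks on IL4R, held 126.7, 120.7 and 126.7 CPM in control and 135.1, 142.2 and 145.9 CPM in PDZK1 libraries (log2 fold change 0.18, adjusted p = 0.0393, edgeR). TOLLIP, which restrains signalling from interleukin 1 receptors, held 97.4, 98.3 and 95.8 CPM in control and 109.5, 108.6 and 112.5 CPM in PDZK1 libraries (log2 fold change 0.18, adjusted p = 0.022, edgeR). Both calls held without control replicate 3 (adjusted p = 0.0239 and 0.0217) and were lost without any one of the other libraries, with adjusted p between 0.0525 and 0.187. SOCS3, the feedback inhibitor of gp130, held 7.46, 6.73 and 6.05 CPM in control and 9.39, 6.68 and 5.49 CPM in PDZK1 libraries, with overlap. Its log2 fold change was 0.09 (adjusted p = 0.861, edgeR), and -0.15 without PDZK1 replicate 1.

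The 8 proteases and related genes of receptor shedding, by which soluble IL6R can be released, had 0 genes past edgeR's threshold. At an unadjusted p under 0.05 there was 1, beside 2388 of all 13645 genes tested, and 0 passed in DESeq2 and in limma. ADAM10 held 196.8 to 201.6 CPM in control and 198.6 to 211.6 CPM in PDZK1 libraries. ADAM17 held 62.0 to 67.7 CPM in control and 63.7 to 68.6 CPM in PDZK1 libraries. The ranges of both overlapped.

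Genes known as targets of the pathways were taken as 3 lists. Of 24 STAT6 targets, 6 were tested, and TGM2, a transglutaminase, rose while MAOA, a monoamine oxidase, fell. TGM2 held 97.1, 101.8 and 109.5 CPM in control and 157.5, 167.9 and 154.9 CPM in PDZK1 libraries (log2 fold change 0.64, adjusted p = 0.000218, edgeR). MAOA held 17.8, 16.9 and 16.1 CPM in control and 8.71, 9.92 and 9.81 CPM in PDZK1 libraries (log2 fold change -0.84, adjusted p = 0.00123, edgeR). Both calls held under all 15 alternatives, in opposite directions. The widest fold changes of the list did not pass the test, POSTN at -2.81 (0.971 to 1.92 CPM in control and 0 to 0.336 CPM in PDZK1 libraries, adjusted p = 0.0704, edgeR) and SERPINB2 at 1.83 (6.45 to 17 CPM and 31.3 to 53.6 CPM, adjusted p = 0.125, edgeR). At an unadjusted p under 0.05 there were 5 of the 6, beside 2388 of all 13645 genes tested. DESeq2 called 4 of the 6 and limma on log2 FPKM 2, and the median of the 6 was 0.078. Of 27 STAT3 targets, 17 were tested, with 0 past edgeR's threshold, 4 at an unadjusted p under 0.05, 0 in DESeq2 and in limma, and a median of -0.024.

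Of 23 targets of interleukin 1 and NF-kappaB, 17 were tested, 3 fell and 14 did not pass the test, and the median log2 fold change was -0.46. Of the 17, 16 had a log2 fold change below 0, beside 50.1% of all genes tested. At an unadjusted p under 0.05 were 8, beside 2388 of all 13645 genes tested. DESeq2 called 6, limma on log2 FPKM 2 (1 with no filter) and edgeR with the replicate block 0. With 1 library left out edgeR called 0 to 5. The chemokine genes CXCL2 (log2 fold change -1.22, adjusted p = 0.026) and CXCL3 (-0.75, adjusted p = 0.0124) fell, as did NFKBIZ (-0.56, adjusted p = 0.0221, all edgeR), which encodes a nuclear regulator induced by interleukin 1. CXCL2 and CXCL3 are related genes of similar sequence that could share reads, which was not tested, so their separate values are uncertain. The summed level of the list was 3001, 2940 and 1890 CPM in the control libraries and 1943, 1279 and 1976 CPM in the PDZK1 libraries, and control replicate 3 lay among the PDZK1 libraries in this sum. Most of the sum was SOD2, at 2181, 2092 and 1291 CPM in control and 1355, 849.2 and 1403 CPM in PDZK1 libraries. For the 3 genes that fell, control replicate 3 was above every PDZK1 library, with CXCL2 at 2.14 against at most 0.915 CPM, CXCL3 at 9.49 against at most 7.09 CPM and NFKBIZ at 34.3 against at most 28.8 CPM. CXCL2 was past the threshold without control replicate 3 (adjusted p = 0.0482) and not without any one of the others (0.0736 to 0.118). CXCL3 was not past it without PDZK1 replicate 1 (0.0707), control replicate 1 (0.0552) or control replicate 2 (0.0705). NFKBIZ was not past it without PDZK1 replicate 1 (0.0894), PDZK1 replicate 3 (0.0514), control replicate 1 (0.0736) or control replicate 2 (0.109).

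**Figure D5:**
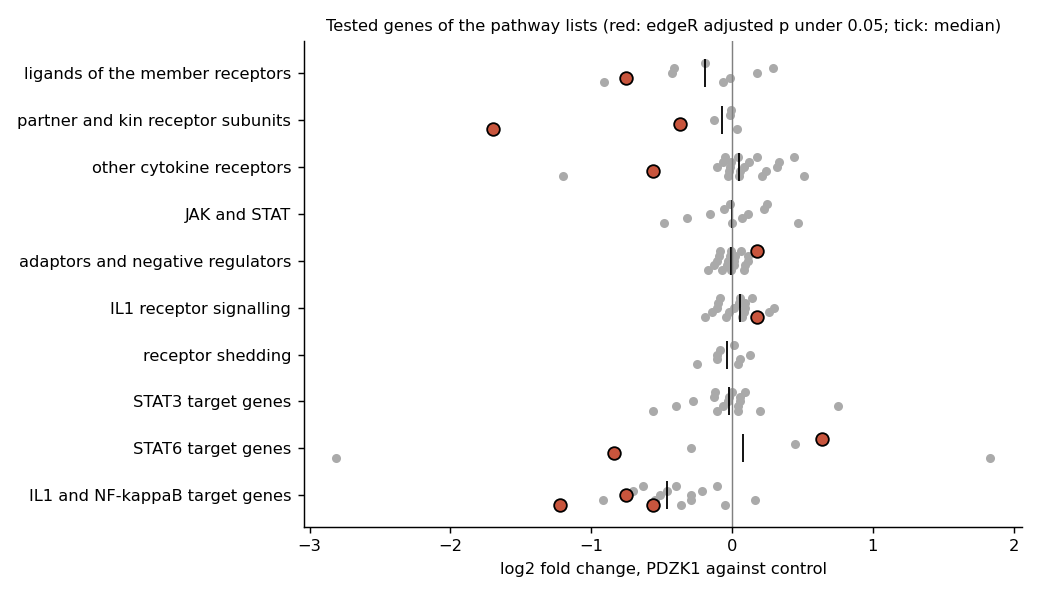
Log2 fold change, PDZK1 against control, of each tested gene of the 10 pathway lists (1 point a gene, 1 row a list), in red where edgeR's adjusted p is under 0.05, with a black tick at the list's median. The medians lie between -0.46 (interleukin 1 and NF-kappaB targets) and 0.078 (STAT6 targets), and 11 of 132 tested genes are red.

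Over the 10 lists, 11 of 132 tested genes passed the threshold, 3 higher and 8 lower, or 8.33%, beside 3.83% of all genes tested. The median of the 132 was -0.023. The count ran from 4 to 20 over the alternatives, which called 163 to 875 of all genes. CHI3L1, IL7R, TGM2 and MAOA were the listed genes past the threshold under every alternative. Because the lists were chosen with earlier results of these data known, nothing is read from the share or the count.

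Genes next to the receptors on their chromosomes were looked at for shared differences. LRCH2 was the tested gene within 500 kb of IL13RA2, at a log2 fold change of -0.021. Within 500 kb of IL13RA1 were 4 tested genes with a median of 0.022 and 0 past edgeR's threshold, and within 500 kb of IL6R were 20 with a median of 0.019 and 1 past it. OSMR and LIFR are neighbours on chromosome 5 and had log2 fold changes of -0.27 and 0.27.

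Over the 6 libraries, the genes whose log2 CPM followed that of IL13RA2 most closely, among 12628 compared, were RCC2 (Pearson r 0.9983), ADSS2 (0.9938), ACSL5 (0.9936), PDZK1IP1 (0.9921) and FBXO6 (0.9913). The points share their libraries and fall into the groups of the design, so a high r is easily reached by genes whose groups lie apart, and the values are a description. ACSL5 and FBXO6 did not pass edgeR's threshold (log2 fold change -0.09 and -0.36, adjusted p = 0.368 and 0.346). RCC2 held 80.5, 83.9 and 75.8 CPM in control and 65.9, 65.7 and 67.5 CPM in PDZK1 libraries, with the same order among the control libraries as IL13RA2. PDZK1IP1, which encodes a small membrane protein that binds PDZK1, held 4.24, 4.89 and 2.79 CPM in control and 0.343, 0.397 and 0.631 CPM in PDZK1 libraries (log2 fold change -3.11, adjusted p = 0.000895, edgeR). Among the receptors, OSMR (0.94) and IL6R (0.93) had the highest r with IL13RA2 and IL13RA1 the lowest (-0.90), and CHI3L1 had 0.95.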

How the data were processed

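RNA sequencing libraries of ARPE-19 cells, 3 with control and 3 with PDZK1 lentivirus, were analysed from 2 deposited tables. The first holds estimated counts per gene, deposited by the authors as whole numbers without depth scaling. The second holds FPKM computed by the authors. The submitters' processing notes name fastp 0.20.1, HISAT2 2.2.1 and GRCh38. The counting program, annotation release and strandedness are not given in the sources used here. Across both tables, 6 columns match none of the samples and were not used. Of 21314 entries, 853 assembled loci were left out, which held 0.519% to 0.536% of the counts. IL3RA and other pseudoautosomal genes are listed as 2 copies that share reads, and the copy in GENCODE release 29 was used. Coordinates are those of GENCODE release 29.

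Genes passing filterByExpr (13645) were scaled by TMM and compared with the robust quasi-likelihood test of edgeR 4.0.16 (R 4.3.3), with no covariate and Benjamini-Hochberg adjustment over all of them at 0.05. CPM use TMM-scaled library sizes. Intervals are 95% model intervals, and floors of 3 counts cover counting error only. The fit was run on counts simulated from its own model with known changes. Such counts cannot show how it handles an outlying library or changes smaller than those simulated, and nothing is read from them. Alternatives were DESeq2 1.42.0, limma 3.58.1 on log2 FPKM with a pseudocount of 1 or 0.1 (mean FPKM of at least 0.5, or no filter), other scalings and count filters, the replicate number as a block, and each library left out.

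The receptors and the gene lists were chosen with earlier results of these data known. The rule for naming genes took the 8 receptors, up to 5 genes per list and direction past the threshold, IL2RG, IL1RAP, IL1R2, the main ligands, STAT3, STAT6, SOCS3, PDZK1 and the 5 genes most like IL13RA2. Other genes named were chosen after their values were seen.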

Additional observations from a re-analysis of the deposited data

How the results depend on the processing

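Past the threshold were 522 genes, of which 37.0% were higher with PDZK1. The number was 814 with DESeq2, which shared 520 of them, 184 in the limma fit at a pseudocount of 1, 185 at 0.1 and 185 when low genes were kept, and 181 to 875 with 1 library left out (268, 186 and 875 without control replicates 1, 2 and 3, and 181, 293 and 206 without PDZK1 replicates 1, 2 and 3). Library totals as the only scaling gave 517, with 46.6% higher. Among the 8 receptors, 1 passed, and 4 did with DESeq2, 2 with library totals and 1 to 4 with 1 library left out, the 4 without control replicate 3, which are counts over genes selected on these values and support nothing. Of the pathway genes 11 passed, against 18 with DESeq2, 6 in each fit on log2 FPKM and 4 to 20 with 1 library left out (20 without control replicate 3). The log2 fold change of SOCS3 was 0.09, and -0.15 to 0.25 with 1 library left out, below 0 without PDZK1 replicate 1. The cause of these differences was not tested.

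Replicate numbers are shared between the groups, but deviations from the group means correlated at -0.046, -0.056 and -0.143 between libraries of one number, and nothing in the labels pairs them. With the replicate block 163 genes, 4 pathway genes and 1 receptor, IL13RA2, passed the threshold. Depth limits IL6R most, with 104 to 206 counts per library.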
